A study of Capra hircus with 3 samples.

Results

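Barcodes carrying B cell transcripts were examined in single-cell RNA-seq of goat liver. A barcode was a member when it held at least 3 unique molecular identifiers (UMIs, counted RNA molecules) of PAX5, BANK1 and MS4A1 together, 0 UMIs of THEMIS, TRAT1, STAB2 and TIMD4, and fewer than 4 UMIs of CPS1 and ABCB11 together. CR2, the fourth marker of the rule, was not analysed here. The rule took 1182 of 25591 barcodes. The levels of the rule's own genes are therefore given as a description.

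The study pooled livers of female goats aged 3 to 4 years, 5 goats to a pool, into 3 libraries. Con was the healthy group, fed the LRDS diet. NASH was the group with non-alcoholic steatohepatitis, a fatty and inflamed liver, and NASH-T was the group labelled as tolerant of steatohepatitis. Both of these received the HRDS diet. All livers were digested with 0.25% trypsin and 10 µg/mL DNase I at 37 °C for 40 min, passed through a 40 µm strainer, treated to lyse red cells and loaded for droplet 3′ sequencing. With 1 library a group, the spread between goats was not measured, and group, library and pooled animals cannot be told apart. No test between groups was possible: intervals below are 95% exact intervals that cover counting error only.

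B cells recognise antigen through a membrane immunoglobulin, whose signal passes through the kinases LYN, BLK, SYK and BTK and the adaptor BLNK to the phospholipase PLCG2. PAX5 is the transcription factor that holds cells in the B lineage, MS4A1 encodes the surface protein CD20, and BANK1 is a scaffold of receptor signalling. An activated B cell may become a plasma cell, which loses PAX5 and secretes immunoglobulin joined, in its polymeric forms, by the J chain (JCHAIN). Liver B cells lie among hepatocytes, endothelium and resident macrophages, the Kupffer cells, and also present antigen to T cells.

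The libraries held 7485 barcodes in Con, 8731 in NASH and 9375 in NASH-T, with 25506238, 31195014 and 29572158 UMIs and median depths of 2461, 2555 and 2201 UMIs a barcode. Between 20 and 23 barcodes were shared by each pair of libraries, and 0 of these were members in both. Scrublet called 9, 8 and 10 members doublets in Con, NASH and NASH-T.

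The label held for some of the members only. Of the members, 110 in Con, 88 in NASH and 178 in NASH-T had a UMI of PAX5 or MS4A1, which is 25.8%, 29.2% and 39.1%. They are called PAX5/MS4A1 members below. The other 316, 213 and 277 members met the rule through BANK1 alone and are called BANK1-only members. BANK1 gave 85.5%, 88.0% and 81.4% of all marker UMIs that members held.

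Each member was compared on the sum of 18 B cell genes outside the rule, such as CD22, BLK and BLNK, and the sum of 12 macrophage genes, such as CD163, MSR1 and VSIG4. Among PAX5/MS4A1 members the B cell sum was the higher in 110 of 110 in Con, 84 of 88 in NASH and 174 of 178 in NASH-T. Among BANK1-only members the macrophage sum was the higher in 193 of 316, 124 of 213 and 142 of 277, and the B cell sum in 98, 69 and 117. The BANK1-only members thus lay on both sides, while nearly every PAX5/MS4A1 member lay on the B cell side.

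**Figure D1:**
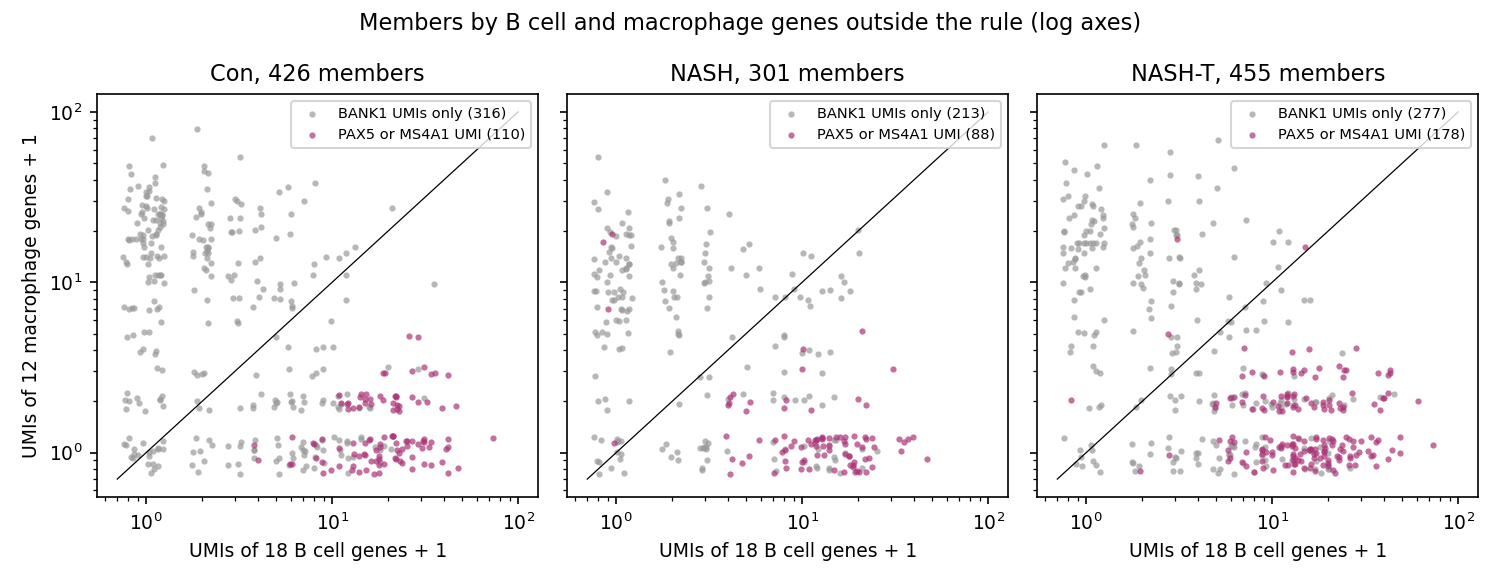
Each point is 1 member, with the summed UMIs of 18 B cell genes outside the rule (plus 1) on the x axis and of 12 macrophage genes (plus 1) on the y axis, both log scales, 1 panel a library; points are jittered and the line marks equality. PAX5/MS4A1 members (pink) lie below the line in 110 of 110, 84 of 88 and 174 of 178 cases, and BANK1-only members (grey) lie on both sides.

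Summed levels over the cells gave the same division. B cell genes outside the rule came to 10907, 9308 and 9898 CPM (UMIs of a gene scaled to 1000000 UMIs of all genes) in PAX5/MS4A1 members of Con, NASH and NASH-T, and to 1256, 1494 and 1792 CPM in BANK1-only members. Macrophage genes came to 251, 484 and 417 CPM in the former and 4249, 3261 and 3767 CPM in the latter. In T cells of the same libraries, chosen by THEMIS, TRAT1 and BCL11B, the macrophage sum was 193, 242 and 244 CPM. In macrophages with BANK1 not limited it was 7145, 6068 and 6613 CPM. That sum counts MSR1 and CD163, which chose the macrophages and were absent from the T cells by rule. These reference levels are thus partly set by the choice of cells. T cell genes stood at 353, 422 and 400 CPM in PAX5/MS4A1 members, 792, 530 and 977 CPM in BANK1-only members and 9339, 8607 and 9444 CPM in T cells. BCL11B, which helped choose the T cells, is among them.

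BANK1 was also detected in cells chosen without it. Among macrophages picked by TIMD4, MSR1 and CD163 with BANK1 not limited, 1213 in Con, 997 in NASH and 1386 in NASH-T, at least 1 BANK1 UMI was found in 81.0%, 80.1% and 77.1%, and at least 3 in 51.0%, 45.9% and 45.5%. These macrophages had median depths of 2898, 2609 and 2988.5 UMIs. The exclusion of TIMD4 removed 570 of 1282, 494 of 1029 and 637 of 1426 barcodes that met the marker sum, more than any other exclusion in each library. In all, the exclusions removed 28, 14 and 40 barcodes with a PAX5 or MS4A1 UMI.

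The marker sum itself counts PAX5 and MS4A1 UMIs, so the share of members with such a UMI is tied to it and is given as a description. At exactly 3 marker UMIs, just inside the rule, 4 of 117 members in Con, 4 of 71 in NASH and 9 of 89 in NASH-T had a PAX5 or MS4A1 UMI, and at 2 UMIs, just outside, 2 of 127, 5 of 111 and 3 of 146 barcodes did. At 10 or more marker UMIs the share was 75.3%, 74.7% and 82.7%. The sum of B cell genes outside the rule exceeded the macrophage sum in 33.3%, 32.4% and 51.7% of members at 3 marker UMIs. At 10 or more it did so in 82.5%, 86.1% and 90.6%. PAX5/MS4A1 members were the shallower cells, with median depths of 1667, 1298 and 1477.5 UMIs against 2287.5, 2134 and 2171 in BANK1-only members.

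The share of barcodes that met the whole rule was 5.69% (5.18 to 6.24) in Con, 3.45% (3.07 to 3.85) in NASH and 4.85% (4.43 to 5.31) in NASH-T. PAX5/MS4A1 members were 1.47% (1.21 to 1.77), 1.01% (0.809 to 1.24) and 1.90% (1.63 to 2.20) of barcodes. The ratio of their shares was 0.686 (0.512 to 0.916) for NASH against Con, 1.29 (1.01 to 1.65) for NASH-T against Con and 1.88 (1.45 to 2.46) for NASH-T against NASH. BANK1-only members were 4.22% (3.78 to 4.70), 2.44% (2.13 to 2.79) and 2.95% (2.62 to 3.32), highest in Con. The difference of PAX5/MS4A1 members between NASH-T and Con depended on the setting. The ratio was 1.24 (0.960 to 1.60) with at least 5 marker UMIs. It was 1.27 (0.996 to 1.63) with at most 6000 UMIs a barcode and 1.18 (0.888 to 1.56) with at least 1000. Over barcodes with CPS1 and ABCB11 below 4 it was 1.19 (0.932 to 1.52). Barcodes thinned to 1000 UMIs, with members then chosen at 2 or more marker UMIs, gave 1.09 (0.812 to 1.47). With members holding JCHAIN or MZB1 left out, but such barcodes kept in the denominator, the ratio was 1.00 (0.758 to 1.33). Each of these intervals holds 1. Outside the members JCHAIN was found in 4.49% of barcodes in Con and 13.5% in NASH-T. For NASH against Con the interval held 1 over the barcodes with CPS1 and ABCB11 below 4, at 0.823 (0.615 to 1.10). These shares are of all barcodes kept after digestion, and the yield of other cells sets their denominator.

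**Figure D2:**
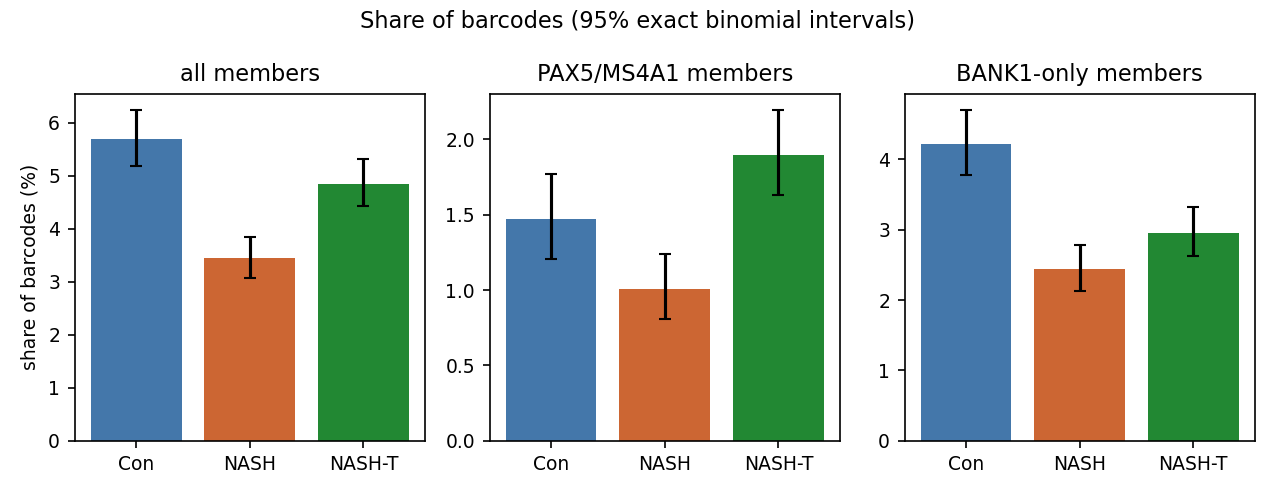
Bars give the percent of all barcodes in a library that are members, PAX5/MS4A1 members and BANK1-only members, and error bars are 95% exact binomial intervals for counting error. PAX5/MS4A1 members were 1.47%, 1.01% and 1.90% in Con, NASH and NASH-T, and BANK1-only members 4.22%, 2.44% and 2.95%.

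PAX5/MS4A1 members carried a B cell program beyond the rule's genes. PAX5 itself stood at 2325, 2179 and 2470 CPM in Con, NASH and NASH-T and MS4A1 at 353, 312 and 313 CPM. BCL11A, a transcription factor required for B lineage development, stood at 2050, 2022 and 2018 CPM, against 12.5, 16.9 and 18 CPM in all other barcodes. Its level was nearly the same in the 3 libraries. BTLA, an inhibitory receptor of lymphocytes, stood at 745, 593 and 549 CPM against 4.16, 10.8 and 7.31 CPM in other barcodes.

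CD22, the sialic-acid-binding inhibitory receptor of B cells, was at 3.39, 2.62 and 3.01 CPM outside the members, RALGPS2, a Ral exchange factor abundant in B cells, was at 4400, 3467 and 4214 CPM within them, and AFF3, a nuclear protein of lymphoid cells, was at 4066, 3951 and 3459 CPM. ATRNL1, an attractin-like protein, stood at 1634, 1140 and 1456 CPM against 37.8, 21.4 and 27.1 CPM in other barcodes. KLHL14, a ubiquitin ligase adaptor, stood at 295, 367 and 478 CPM against 1.27, 1.41 and 4.48 CPM. These genes were ordered by the lowest of 3 log2 differences from other barcodes, and after PAX5 at 6.45 came BCL11A at 5.75 and ATRNL1 at 4.81.

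Parts of the canonical receptor were nearly undetected. CD79A, a signalling chain of the B cell receptor, had 1, 2 and 4 UMIs in PAX5/MS4A1 members of Con, NASH and NASH-T, and its partner CD79B had 2, 0 and 1. CD79A and CD79B had 0 UMIs in BANK1-only members, T cells and macrophages of each library. The annotation behind these counts was not given in the sources used here, and its part in the low values was not tested.

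Against the BANK1-only members of the same library, genes that stood far higher in PAX5/MS4A1 members included SOX5, a transcription factor of atypical memory B cells, and RALGPS2. SOX5 was at 1958, 2834 and 1550 CPM against 52.2, 128 and 80.6 CPM. RALGPS2 was at 235, 155 and 361 CPM in BANK1-only members. FYB1, an adaptor of T cells and myeloid cells, showed the reverse order, with 1358, 1391 and 1356 CPM in BANK1-only members and 38.7, 109 and 74.3 CPM in PAX5/MS4A1 members. VSIG4, a complement receptor of Kupffer cells, was at 551, 427 and 490 CPM against 4.83, 31.2 and 9.69 CPM. PDGFC, a growth factor, was at 1012, 686 and 884 CPM against 24.2, 23.4 and 35.5 CPM.

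**Figure D3:**
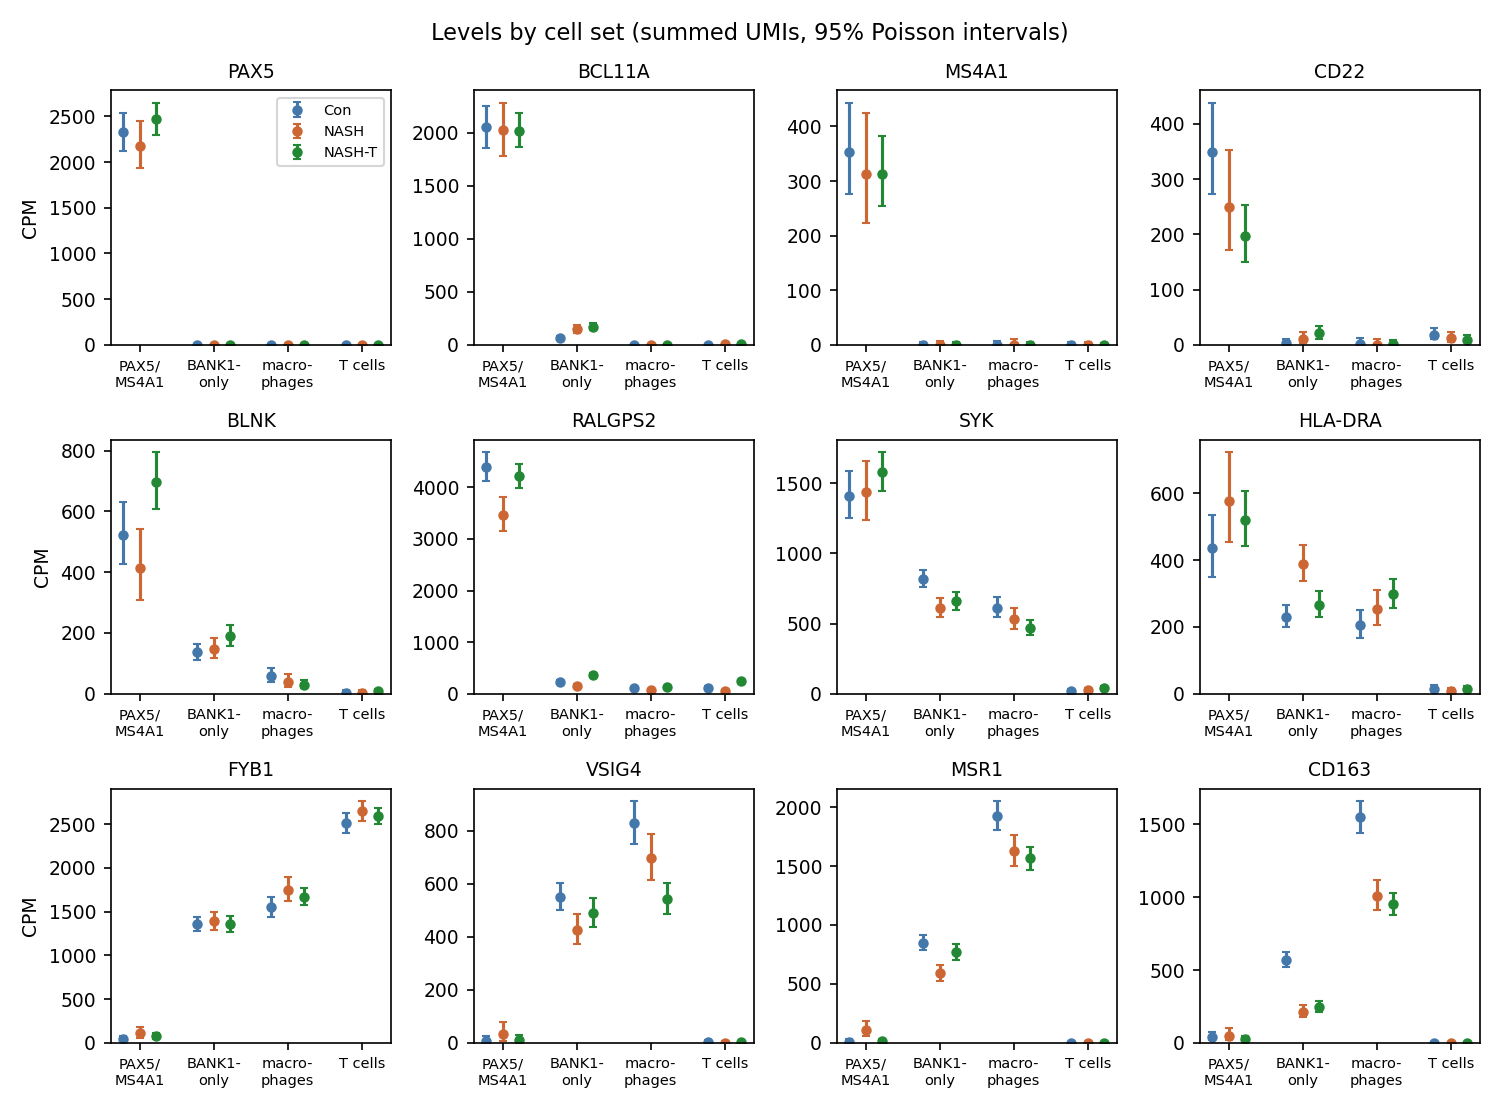
Each panel gives 1 gene, with its level in CPM in PAX5/MS4A1 members, BANK1-only members, macrophages and T cells, 1 point a library and error bars for 95% exact Poisson intervals. PAX5, BCL11A, MS4A1, CD22 and RALGPS2 stand highest in PAX5/MS4A1 members, while FYB1, VSIG4, MSR1 and CD163 are low there and high in BANK1-only members or macrophages. Part of this is set by the rules, which leave no PAX5 or MS4A1 UMI in the other sets. MSR1 and CD163 also chose the macrophages and are absent from T cells by rule.

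The comparisons between groups below use PAX5/MS4A1 members, which held 206838 UMIs in Con, 128066 in NASH and 309658 in NASH-T. A gene with at least 20 UMIs over both libraries was measured, and it passed the fold when its ratio was at least 1.5 in either direction with an interval that left out 1. For NASH against Con 9.57% of 3502 measured genes passed (4.57% higher, 5% lower), for NASH-T against Con 10.1% of 4527 (5.43% higher, 4.68% lower) and for NASH-T against NASH 11.3% of 4114 (6% higher, 5.27% lower). In all members together the shares were 9.25%, 9.88% and 10.4%. The median log2 ratio of all measured genes was -0.02, 0.00 and 0.01. The 3 comparisons share libraries, so their values are set side by side only. A gene could be measured through the UMIs of 1 library alone. Counts and medians of lists of rare genes are tied to that filter.

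Most measured genes of receptor signalling stayed within the fold, as did most of all measured genes, of which 9.57%, 10.1% and 11.3% passed in the 3 comparisons. Of 26 genes in the list, 0 were higher and 2 lower of 20 measured for NASH against Con (median log2 ratio -0.04), 0 higher and 1 lower of 21 for NASH-T against Con (0.08), and 3 higher and 1 lower of 20 for NASH-T against NASH (0.05). The kinase SYK was at 1412, 1437 and 1579 CPM in Con, NASH and NASH-T, LYN at 585, 664 and 643 CPM and BTK at 566, 492 and 526 CPM. PLCG2 was at 822, 742 and 888 CPM. None of these 4 kinases and enzymes passed the fold.

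A few members of the signalling list differed. BLK, a Src-family kinase of B cells, was highest in Con and lowest in NASH-T, with 353, 273 and 210 CPM and a ratio of 0.595 (0.419 to 0.842) for NASH-T against Con. BLNK, the adaptor that links SYK to PLCG2, was at 522, 414 and 698 CPM, with 1.69 (1.24 to 2.32) for NASH-T against NASH. Members with a JCHAIN UMI, described below with the plasma cell genes, held 104 of its 216 UMIs in NASH-T, and without them the BLNK ratio was 1.38 (0.976 to 1.99), under the fold. STAP1, an adaptor downstream of the receptor, was at 276, 164 and 316 CPM, with 0.595 (0.343 to 0.997) for NASH against Con and 1.93 (1.20 to 3.26) for NASH-T against NASH. FYN, a kinase more abundant in T cells, was at 343, 125 and 430 CPM, with 0.364 (0.197 to 0.632) for NASH against Con and 3.44 (2.04 to 6.19) for NASH-T against NASH. FYN stood at 3268, 3356 and 2978 CPM in T cells.

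CD22 was the inhibitory receptor that passed the fold between NASH-T and Con, with 348, 250 and 197 CPM and a ratio of 0.566 (0.396 to 0.807). It was 1 of 9 measured genes of the inhibitory list in that comparison, and 0 of 7 passed for NASH against Con and 0 of 9 for NASH-T against NASH. Of all measured genes 10.1%, 9.57% and 11.3% passed in these comparisons, so 1 of 9 is near the share over all genes. CD22 and BLK were both highest in Con and lowest in NASH-T.

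Few B lineage transcription factors passed the fold, beside 9.57%, 10.1% and 11.3% of all measured genes for NASH against Con, NASH-T against Con and NASH-T against NASH. Of 30 genes, 0 of 22 measured passed the fold for NASH against Con (median -0.02), 0 of 25 for NASH-T against Con (median -0.08) and 1 of 25 for NASH-T against NASH (median 0.04). MEF2C, which acts in B cell survival and proliferation, was at 3051, 2163 and 2890 CPM, with 0.709 (0.613 to 0.818) for NASH against Con. IKZF3, an Ikaros-family factor of lymphocytes, was at 943, 1203 and 1098 CPM, and BACH2, which restrains plasma cell differentiation, at 541, 383 and 417 CPM. ETS1, which likewise restrains that step, was at 1107, 1124 and 959 CPM. These differences stayed within the fold. ZEB2, which passed for NASH-T against NASH, is described with the memory genes.

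Genes of memory and atypical B cells stood lower in NASH-T than in NASH for some members of the list. Of 21 genes, 11 were measured, 1 was higher and 4 lower (median -0.22), beside 6% higher and 5.27% lower of all measured genes. SOX5 had a ratio of 0.547 (0.476 to 0.628) and was detected in 51.8%, 64.8% and 49.4% of PAX5/MS4A1 members in Con, NASH and NASH-T. ZEB2, a transcription factor of the same program, was at 3539, 4326 and 2706 CPM, with 0.626 (0.561 to 0.698). TBX21, which encodes T-bet, had 12, 16 and 16 UMIs, or 58.0, 125 and 51.7 CPM, with 0.414 (0.194 to 0.883).

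ITGAM, the integrin CD11b, had 13, 13 and 12 UMIs and a ratio of 0.382 (0.159 to 0.908). The 4 genes were thus highest in NASH, by CPM, and for NASH against Con none passed the fold: SOX5 had 1.45 (1.25 to 1.67) and ZEB2 1.22 (1.09 to 1.37). DTX1, a regulator of Notch signalling found in marginal zone B cells, was the exception, with 12, 1 and 27 UMIs and a ratio of 11.2 (1.84 to 457) for NASH-T against NASH. ZEB2 was also abundant in BANK1-only members, at 6398, 6483 and 5383 CPM, whereas SOX5 was not.

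Antigen presentation genes showed a small number of differences, all higher in NASH-T. Of 39 genes, 0 of 16 measured passed for NASH against Con, 2 of 17 were higher for NASH-T against Con (median 0.01) and 3 of 16 for NASH-T against NASH (median 0.19). Of all measured genes 5.43% were higher for NASH-T against Con and 6% for NASH-T against NASH. HLA-DRA, an MHC class II chain, was at 435, 578 and 520 CPM in Con, NASH and NASH-T. CIITA, the master regulator of class II genes, was at 406, 445 and 384 CPM and CD74, the invariant chain, at 164, 109 and 145 CPM. Those 3 stayed within the fold.

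IFI30, a lysosomal reductase that prepares antigen for class II loading, had 51, 27 and 137 UMIs, or 247, 211 and 442 CPM. Its ratio was 1.79 (1.29 to 2.53) for NASH-T against Con and 2.10 (1.38 to 3.3) against NASH. TAP2, a peptide transporter of the class I path, was at 387, 461 and 601 CPM, with 1.55 (1.19 to 2.04) for NASH-T against Con. IFI30 was highest in NASH-T in macrophages too, at 128, 81.0 and 212 CPM. CTSH, a lysosomal protease, had 24, 8 and 43 UMIs and passed for NASH-T against NASH at 2.22 (1.03 to 5.47).

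Of 18 genes of costimulation and T cell help, 0 of 6 measured were higher and 1 lower for NASH against Con, 1 higher and 1 lower of 6 for NASH-T against Con, and 1 higher and 1 lower of 5 for NASH-T against NASH, with median log2 ratios of 0.12, -0.63 and 0.27. Of all measured genes 4.57%, 5.43% and 6% were higher and 5%, 4.68% and 5.27% lower in these comparisons. CD40, the receptor for help from T cells, had 36, 6 and 38 UMIs, or 174, 46.9 and 123 CPM. Its ratio was 0.269 (0.0927 to 0.645) for NASH against Con and 2.62 (1.10 to 7.58) for NASH-T against NASH. It was found in 24.5%, 6.82% and 19.1% of these members, so NASH stood apart from both others.

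Of 21 genes of the Toll-like receptor pathway, 2 of 9 measured were higher and 1 lower for NASH against Con, 0 higher and 1 lower of 9 for NASH-T against Con, and 0 higher and 1 lower of 10 for NASH-T against NASH, with medians of 0.06, -0.17 and -0.42. The shares over all measured genes were 4.57%, 5.43% and 6% higher and 5%, 4.68% and 5.27% lower. LY86, the partner of the Toll-like receptor relative CD180, was highest in NASH, at 421, 695 and 375 CPM. It had 1.65 (1.22 to 2.25) for NASH against Con and 0.539 (0.405 to 0.719) for NASH-T against NASH. CD180 itself was at 150, 156 and 110 CPM and did not pass. SAMHD1, a nucleotide hydrolase that limits DNA synthesis and viruses, was highest in Con, at 667, 367 and 426 CPM, with 0.550 (0.386 to 0.771) for NASH and 0.639 (0.499 to 0.817) for NASH-T against Con.

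Survival and homing genes included BCL2, which blocks apoptosis, at 387, 250 and 497 CPM in Con, NASH and NASH-T. BCL2 had 0.646 (0.415 to 0.985) for NASH against Con and 1.99 (1.35 to 3.01) for NASH-T against NASH. CXCR4, the chemokine receptor that guides B cells and plasma cells to CXCL12, had 21, 0 and 24 UMIs, detected in 16 of 110 PAX5/MS4A1 members of Con and 18 of 178 of NASH-T. With 0 UMIs in NASH set at a floor of 3 counts over the group, CXCR4 was at least 4.33-fold higher in Con and at least 3.31-fold higher in NASH-T. BCL2A1, another survival factor, had 6, 0 and 23 UMIs, at least 3.17-fold higher in NASH-T than in NASH. In T cells CXCR4 stood at 24.1, 15.2 and 20.8 CPM, so it was detected in other cells of the NASH library.

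Plasma cell genes differed between the libraries. JCHAIN had 54 UMIs in PAX5/MS4A1 members of Con, 16 in NASH and 287 in NASH-T, or 261, 125 and 927 CPM. NASH-T was higher by 3.55-fold (2.65 to 4.84) than Con and 7.42-fold (4.49 to 13.2) than NASH, and NASH stood at 0.479 (0.256 to 0.849) of Con. JCHAIN was detected in 13.6% (7.84 to 21.5), 10.2% (4.78 to 18.5) and 33.1% (26.3 to 40.6) of these members. Thinned to 1000 UMIs a cell, which kept 87, 60 and 126 of them, it was found in 12.6%, 10.0% and 23.8%.

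JCHAIN was also found in cells of other types. In T cells, with median depths of 1209.5, 1051 and 1269 UMIs, it was found in 3.17%, 2.76% and 10.1%, with a ratio of 3.76 for NASH-T against Con. In macrophages, with median depths of 2101, 1962.5 and 1957 UMIs, it was found in 1.39%, 1.69% and 13.5%, with a ratio of 10.6. At least 10 JCHAIN UMIs were held by 1, 0 and 7 PAX5/MS4A1 members, up to 23, 4 and 43 in a cell, by 0, 0 and 1 T cells, and by 1, 3 and 17 of all barcodes outside the members, up to 11, 13 and 54. No macrophage held more than 2. Of the 59 JCHAIN-holding PAX5/MS4A1 members of NASH-T, 12 held 3 or more UMIs, and the others held 1 or 2, the range seen in macrophages.

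Of the 16 plasma cell genes, 0 of 5 measured were higher and 2 lower for NASH against Con (median -1.06), 3 of 9 were higher for NASH-T against Con (median 0.47) and 6 of 8 were higher for NASH-T against NASH (median 1.80). Of all measured genes 5% were lower for NASH against Con. For NASH-T against Con 5.43% were higher, and against NASH 6%. Some list genes, such as PRDM1 and TXNDC5 below, reached 20 UMIs through NASH-T. The counts and medians that include NASH-T are thus tied to that filter. ELL2, an elongation factor needed for secreted immunoglobulin, had 44, 9 and 106 UMIs, or 213, 70.3 and 342 CPM, with 4.87 (2.47 to 10.9) for NASH-T against NASH. CREB3L2, a secretory pathway factor, had 29, 15 and 95 UMIs, with 2.19 (1.43 to 3.44) for NASH-T against Con. PRDM1, which encodes BLIMP1, the driver of plasma cell fate, had 16, 2 and 36 UMIs, with 7.44 (1.92 to 63.8) for NASH-T against NASH. TXNDC5, a protein disulphide isomerase, had 14, 3 and 29 UMIs and HERPUD1, of the stress response of the endoplasmic reticulum, had 24, 6 and 44. These genes were lowest in NASH.

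Other genes named by the size of their ratio were also lowest in NASH. FNDC3B, a fibronectin-domain protein of the endoplasmic reticulum, had 105, 10 and 251 UMIs, or 508, 78.1 and 811 CPM, with 0.154 (0.0717 to 0.294) for NASH against Con and 10.4 (5.55 to 21.9) for NASH-T against NASH. MED12L, a Mediator subunit, had 34, 2 and 88 UMIs, with 18.2 (4.89 to 153) for NASH-T against NASH. TEAD1, a Hippo pathway transcription factor, had 40, 6 and 70 UMIs, with 4.83 (2.11 to 13.6). EAF2, a partner of ELL2, had 48, 29 and 167 UMIs, with 2.32 (1.68 to 3.27) for NASH-T against Con. TEAD1 for NASH against Con was 0.242 in all these members and 1.13 in those without JCHAIN and MZB1. All 4 had the fewest UMIs and the lowest CPM in NASH, but for EAF2 NASH lay close to Con. The EAF2 ratio for NASH against Con was 1.07 (0.431 to 2.47) in members with a JCHAIN UMI and 1.08 (0.578 to 1.99) in those without.

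In Con and NASH-T many UMIs of these genes lay in the members with a JCHAIN UMI, which were 15 of 110 in Con, 9 of 88 in NASH and 59 of 178 in NASH-T. Such members held 16.9%, 11.4% and 36.9% of all UMIs. They held 75 of 105 FNDC3B UMIs in Con and 202 of 251 in NASH-T, 27 of 29 and 88 of 95 for CREB3L2, 30 of 34 and 75 of 88 for MED12L, and 6 of 9 and 52 of 55 for TRAM2, a translocation protein of the endoplasmic reticulum. In NASH, where the JCHAIN-holding members were 9, they held 2 of 10 FNDC3B, 5 of 15 CREB3L2, 0 of 2 MED12L and 0 of 6 TEAD1 UMIs. The same 9 members held 6 of 9 TRAM2, 4 of 9 ELL2, 3 of 6 HERPUD1, 3 of 3 TXNDC5 and 2 of 2 PRDM1 UMIs. The concentration in NASH thus differed from gene to gene, at low counts. EAF2 and HERPUD1 were less concentrated in Con, with 20 of 48 and 10 of 24 UMIs in such members. The remaining plasma cell genes summed to 3268, 1505 and 2810 CPM in members with JCHAIN and 355, 220 and 461 CPM in members without it. The B cell genes were 9747, 8141 and 9322 CPM with JCHAIN and 11142, 9458 and 10235 CPM without.

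**Figure D4:**
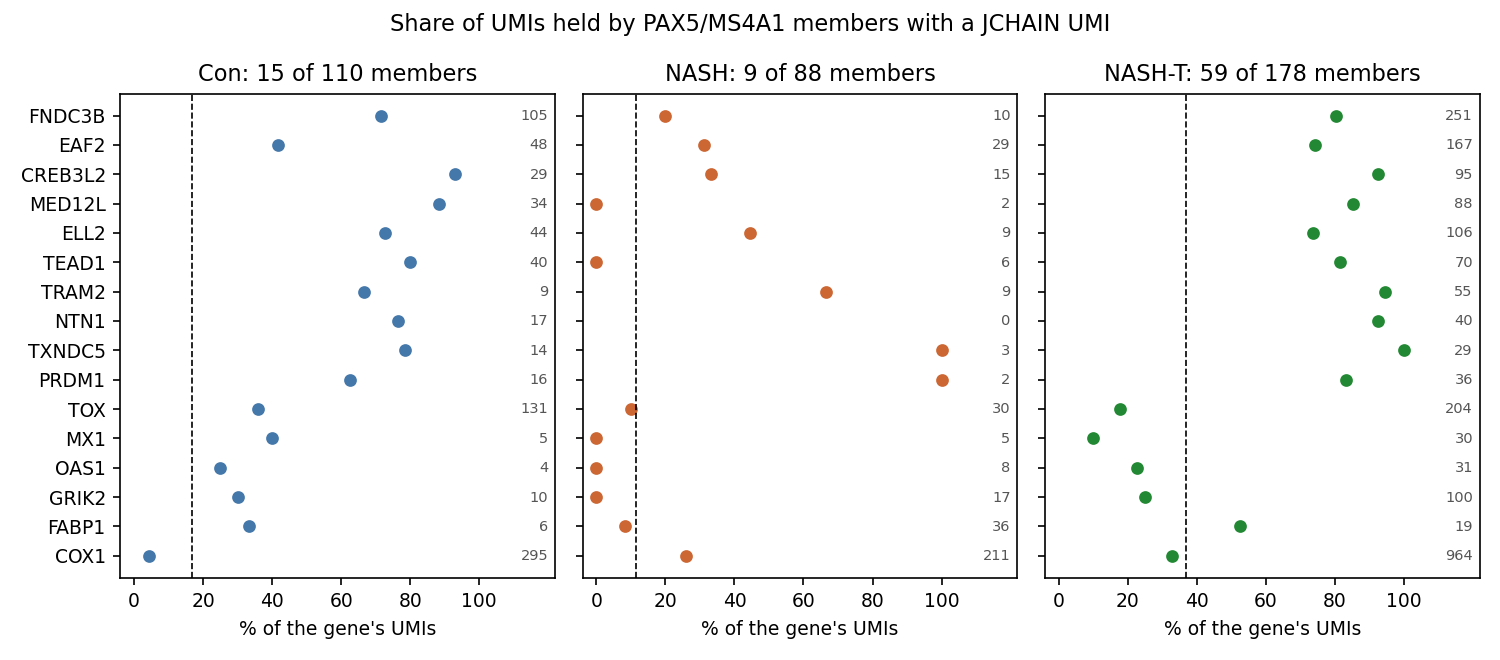
For each gene the points give the percent of its UMIs in PAX5/MS4A1 members that came from members with a JCHAIN UMI, 1 panel a library, with the gene's total UMIs in grey and a dashed line at these members' share of all UMIs (16.9%, 11.4% and 36.9%). CREB3L2, MED12L, FNDC3B and TRAM2 lie far to the right of the line in Con and NASH-T, and TOX, MX1 and OAS1 lie at or to the left of it in NASH-T.

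In members with 0 JCHAIN UMIs, FNDC3B had a ratio of 1.44 (0.894 to 2.35) for NASH-T against Con, EAF2 1.35 (0.820 to 2.26) and TOX 1.76 (1.35 to 2.32). FNDC3B had 0.404 (0.160 to 0.902) for NASH against Con and 3.56 (1.67 to 8.69) for NASH-T against NASH there, both nearer to 1 than the 0.154 and 10.4 in all PAX5/MS4A1 members. In all PAX5/MS4A1 members TOX, a nuclear factor of exhausted and memory lymphocytes, had 131, 30 and 204 UMIs, with 0.370 (0.240 to 0.553) for NASH against Con and 1.04 (0.831 to 1.31) for NASH-T against Con. Unlike CREB3L2, its UMIs in NASH-T came mostly from members without JCHAIN, 168 of 204. In Con members with JCHAIN held 47 of its 131 UMIs, or 35.9%, against 16.9% of all UMIs. In members with JCHAIN the TOX ratio for NASH-T against Con was 0.234 (0.147 to 0.369), the other direction from members without it. PARP8, an ADP-ribosyltransferase, was at 1035, 476 and 707 CPM, with 0.460 (0.341 to 0.614) for NASH against Con in all these members and 0.457 (0.328 to 0.629) in those without JCHAIN.

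Interferon response genes were higher in NASH-T. Their summed level over 31 genes was 981, 1039 and 1789 CPM in PAX5/MS4A1 members of Con, NASH and NASH-T, against 1325, 1361 and 1460 CPM in T cells and 2043, 2530 and 3014 CPM in macrophages. Of 40 genes, 1 of 5 measured was higher for NASH against Con (median -0.09), 4 of 11 for NASH-T against Con (median 0.92) and 2 of 11 for NASH-T against NASH (median 0.68), with 0 lower in each. Of all measured genes 4.57%, 5.43% and 6% were higher. Some list genes reached 20 UMIs through NASH-T, such as MX1 with 5 UMIs in Con and 30 in NASH-T. The counts and medians that include NASH-T are thus tied to that filter, while the summed level is not.

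IFI6, a mitochondrial protein induced by interferon, had 7, 18 and 51 UMIs, with 4.15 (1.66 to 11.8) for NASH and 4.87 (2.20 to 12.7) for NASH-T against Con. OAS1, a sensor of double-stranded RNA, had 4, 8 and 31 UMIs, with 5.18 (1.83 to 20.2) for NASH-T against Con. MX1, an antiviral GTPase, had 5, 5 and 30 UMIs, with 4.01 (1.54 to 13.2), and EIF2AK2, the kinase PKR, had 16, 10 and 61, with 2.55 (1.45 to 4.73). All 4 were highest in NASH-T, and Con and NASH overlapped in their intervals for OAS1, MX1 and EIF2AK2.

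The interferon genes did not follow JCHAIN. Members without JCHAIN held 27 of 30 MX1 UMIs and 24 of 31 OAS1 UMIs in NASH-T, and the ratios for NASH-T against Con in those members were 7.92 (2.44 to 40.8) for MX1 and 5.46 (2.10 to 18) for IFI6. In T cells IFI6 was at 92.8, 101 and 176 CPM, and MX1 at 11.4, 12.4 and 31.2 CPM. In macrophages MX1 was at 74.5, 91.8 and 173 CPM. IFI6 and MX1 were highest in NASH-T in those cells as well.

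**Figure D5:**
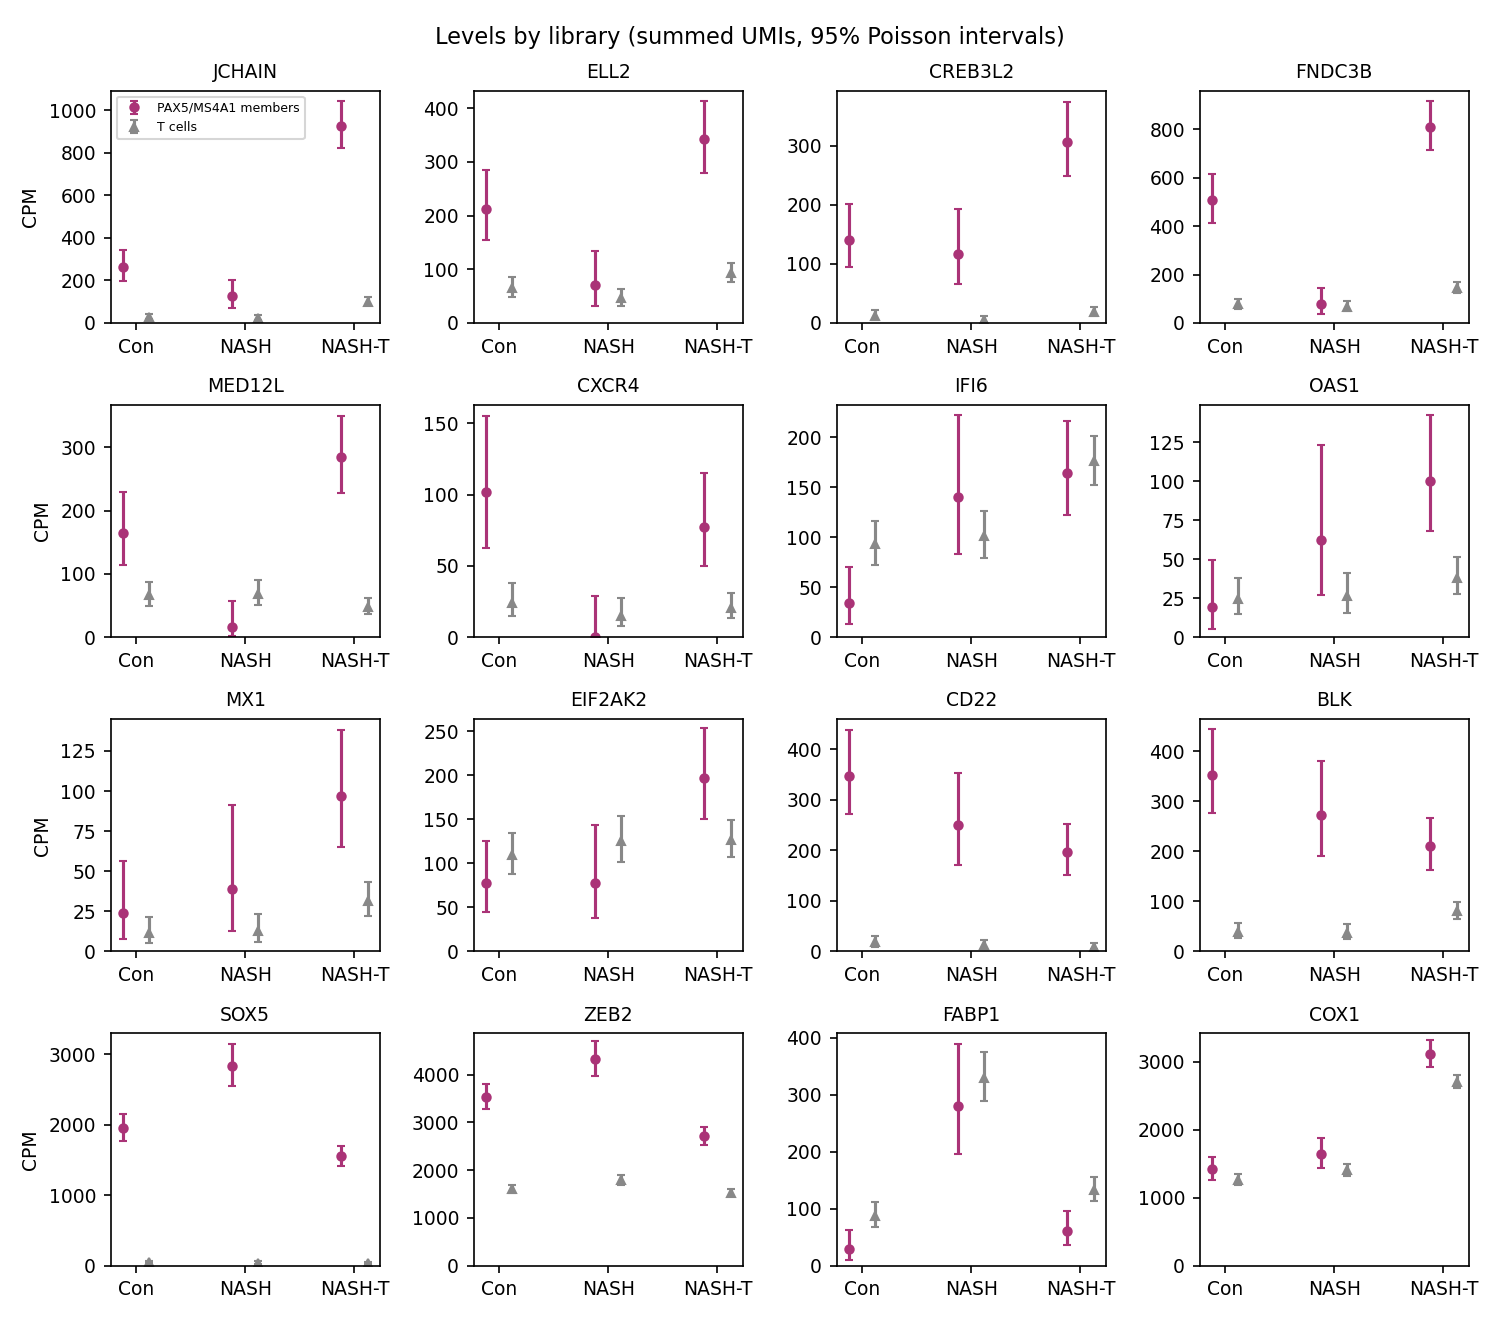
Each panel gives 1 gene, with its level in CPM by library in PAX5/MS4A1 members (circles) and T cells (triangles) and error bars for 95% exact Poisson intervals. JCHAIN, ELL2 and FNDC3B are lowest in NASH and highest in NASH-T among the members, MX1, OAS1 and EIF2AK2 are highest in NASH-T, and CD22 and BLK are highest in Con.

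Other genes chosen by the size of their ratio were mostly of low count. GRIK2, a glutamate receptor subunit, had 10, 17 and 100 UMIs in Con, NASH and NASH-T, with 6.68 (3.49 to 14.4) for NASH-T against Con. It was found in 4.55%, 9.09% and 27.5% of PAX5/MS4A1 members, and stood at 5.08, 1.38 and 0 CPM in T cells. SERPINE2, a protease inhibitor, was highest in NASH, with 12, 26 and 23 UMIs and 3.50 (1.70 to 7.61) for NASH against Con. KLF13, a transcription factor of lymphocytes, had 16, 27 and 33 UMIs and 2.73 (1.42 to 5.41). RELN, a secreted matrix protein, had 21, 13 and 90 UMIs, but 76 of those in NASH-T came from 1 cell. Without the cell of most UMIs in each library its ratio for NASH-T against Con was 3.11 (0.869 to 16.9), an interval that holds 1.

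Genes lower in NASH-T included EGLN3, an oxygen-sensing prolyl hydroxylase, with 28, 6 and 9 UMIs and 0.215 (0.0891 to 0.468) against Con. PIK3CB, a catalytic subunit of PI3 kinase, was at 338, 297 and 145 CPM, with 0.429 (0.289 to 0.633) against Con. SSPN, sarcospan, was at 276, 172 and 119 CPM, with 0.434 (0.279 to 0.667). GRK5, a kinase that desensitises receptors, was at 227, 289 and 116 CPM, with 0.402 (0.247 to 0.655) for NASH-T against NASH. PIK3CB and GRK5 were lowest in NASH-T, and in T cells they stood at 154, 250 and 165 CPM and at 355, 377 and 288 CPM.

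Transcripts of hepatocytes and of mitochondria differed between libraries in PAX5/MS4A1 members and in T cells. ALB, albumin, was at 1334, 1632 and 2283 CPM in PAX5/MS4A1 members and at 1919, 2069 and 2517 CPM in T cells, with a ratio of 1.71 (1.49 to 1.97) in the members for NASH-T against Con. FABP1, the liver fatty acid binding protein, had 6, 36 and 19 UMIs, with 9.69 (4.04 to 28.1) for NASH against Con, beside 3.76 in T cells and 3.96 in macrophages. Of the macrophage genes, C1QA, a complement subunit, had 9, 11 and 45 UMIs, with 3.34 (1.61 to 7.77) for NASH-T against Con. The part of transcripts of other cells in the ratios above was not tested.

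Of the 13 mitochondrially encoded genes, 3 of 10 measured were higher for NASH against Con (median 0.34), 8 of 11 for NASH-T against Con (median 1.13) and 5 of 11 for NASH-T against NASH (median 0.65), with 0 lower in each. Among all measured genes 4.57%, 5.43% and 6% were higher. COX1, a subunit of cytochrome oxidase, was at 1426, 1648 and 3113 CPM, with 2.18 (1.91 to 2.50) for NASH-T against Con. The mitochondrially encoded genes summed to 5120, 6629 and 11167 CPM in PAX5/MS4A1 members and 4895, 5867 and 11659 CPM in T cells. The sum was thus about as high in T cells in each library. In macrophages the same sum was lower and not highest in NASH-T, at 1475, 2150 and 1616 CPM. Among PAX5/MS4A1 members with a JCHAIN UMI it was 1204, 15529 and 9567 CPM in Con, NASH and NASH-T. Among those without it was 5914, 5483 and 12103 CPM. The COX1 ratio for NASH against Con was 10.1 (5.44 to 20.1) with JCHAIN, where NASH had 9 members, and 0.838 (0.685 to 1.02) without.

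PAX5/MS4A1 members also differed among themselves. Ordered by the lowest residual variance of the 3 libraries, the leading genes were ZEB2, COX1, ATRNL1, SOX5, BANK1, COX3, BTLA, MEF2C, SLC2A13 and BACH2. ZEB2 was found in 75.5%, 84.1% and 73.0% of the members, up to 61, 42 and 65 UMIs in a cell. ATRNL1 was found in 39.1%, 37.5% and 44.4%, up to 42, 36 and 24 UMIs, so it was high in some members and at 0 UMIs in many. The mitochondrial genes COX1 and COX3 varied together, with rank correlations of 0.81, 0.62 and 0.87.

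Among pairs of nuclear genes, correlated over 110, 88 and 178 members whose depths also differ, BTLA had 0.53, 0.40 and 0.54 with BACH2 and 0.48, 0.56 and 0.52 with RNF150, a membrane ubiquitin ligase. ALCAM, an adhesion molecule, had 0.50, 0.44 and 0.33 with BACH2. SOX5 ran the other way, with -0.38, -0.43 and -0.17 with BTLA, and was correlated with BANK1 at 0.38, 0.49 and 0.22. These coefficients are over cells and only describe them.

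The BANK1-only members, described by their rule and not by a cell type, showed other differences. Here 11% of 7124 measured genes passed the fold for NASH against Con (5.52% higher, 5.49% lower), 10.2% of 7484 for NASH-T against Con (5.81% higher, 4.37% lower) and 10.4% of 6957 for NASH-T against NASH (5.97% higher, 4.48% lower). CD163, a scavenger receptor, had 457, 110 and 168 UMIs in Con, NASH and NASH-T, or 568, 214 and 246 CPM, with 0.376 (0.302 to 0.464) for NASH against Con. GPNMB, a lysosomal membrane glycoprotein, had 151, 6 and 64 UMIs, with 0.0621 (0.0224 to 0.138) for NASH against Con and 8.05 (3.50 to 22.8) for NASH-T against NASH. CPM, a membrane carboxypeptidase, had 337, 29 and 91 UMIs, at 0.134 (0.0886 to 0.197) for NASH against Con. In macrophages GPNMB was at 277, 5.40 and 36.1 CPM, also highest in Con and lowest in NASH.

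Proliferation genes were higher in NASH among BANK1-only members. Of 25, 9 of 12 measured were higher for NASH against Con (median 1.82), and 1 of 11 was higher and 8 lower for NASH-T against NASH (median -1.63). CENPE, a motor of the kinetochore, had 90, 148 and 76 UMIs, with 2.57 (1.96 to 3.38) for NASH against Con. TOP2A, the mitotic topoisomerase, had 8, 25 and 11 UMIs, with 4.88 (2.13 to 12.5). The list summed to 368, 932 and 403 CPM here, and to 435, 484 and 530 CPM in PAX5/MS4A1 members, where 0 of 1 measured passed for NASH against Con. Without the rule's exclusions the ratio of TPX2, a spindle assembly factor, was 0.952 in BANK1-only members, against 3.41 (2.02 to 5.93) with them.

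T cell genes in BANK1-only members were lowest in NASH: 0 of 9 measured of 16 were higher and 5 lower for NASH against Con (median -0.75), and 5 of 9 were higher for NASH-T against NASH (median 1.02). CD3G, a chain of the T cell receptor complex, had 26, 6 and 31 UMIs and LEF1, a factor of naive T cells, had 58, 19 and 91. CD83, a marker of activated antigen-presenting cells, had 105, 29 and 85 UMIs, with 0.431 (0.276 to 0.656) for NASH against Con, and HLA-DRA was at 231, 388 and 267 CPM, with 1.68 (1.37 to 2.06). BCL11A had 53, 75 and 115 UMIs, or 65.9, 146 and 169 CPM, with 2.56 (1.83 to 3.61) for NASH-T against Con. FOS, an immediate early transcription factor, had 45, 44 and 95 UMIs and 2.49 (1.73 to 3.63) for NASH-T against Con, beside 7.04 in T cells and 5.99 in macrophages. The mixture of cells in this set differed between libraries, and its part in these ratios was not tested.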

How the data were processed

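The deposited matrices hold UMI counts per gene and barcode. The authors produced them with Cell Ranger 7.0.0, per the submitters' processing notes. The genome build and annotation were not given in the sources used here. Each library held 27271 genes, 9958 of them with an identifier only.

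UMIs were summed over the members of a library and divided by their total to give CPM. CPM carry exact Poisson intervals, ratios exact conditional binomial intervals and shares Clopper-Pearson intervals. No test was run, since each group is 1 library. Calculations used Python 3.11.15, scipy 1.17.1 and scanpy 1.11.5 and were tested on simulated data. Members and the 33 gene lists were chosen with earlier results of these data known. The PAX5/MS4A1 and JCHAIN splits, leaving out the cell of most UMIs, and macrophages with BANK1 not limited were chosen after seeing the data.

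Comparison cells had 0 UMIs of the marker genes. T cells held at least 3 UMIs of THEMIS, TRAT1 and BCL11B, and macrophages at least 3 of TIMD4, MSR1 and CD163. Neither of these comparison sets held any UMI of the genes that chose the other. Doublets were called with Scrublet but kept.

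Genes were named from the lists with at least 20 UMIs, up to 4 a list, and by rank. The 10 in each direction whose interval bound lay farthest from 1 were ranked among genes with a ratio of at least 2, a UMI in at least 5% of members of the higher library and a level of at least 20% of that in comparison cells. That rank left out genes of ribosomes, mitochondria, haemoglobins and antigen receptors. The 20 genes furthest above other barcodes, after 20 CPM was added to both, and the 10 of largest residual variance were also named. A gene outside these rules was chosen after its values were seen. Some results are not reported here.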

Additional observations from a re-analysis of the deposited data

How the results depend on the processing

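No paired analysis was possible because each group has 1 library. The cause of the shifts below was not tested unless the setting itself gives it. With CPS1 and ABCB11 below 4 in the denominator, share ratios were 0.727 for NASH against Con and 1.08 for NASH-T against NASH in all members, 1.44 for NASH-T against NASH in PAX5/MS4A1 members, and 0.693 for NASH against Con and 0.929, the other direction, for NASH-T against NASH in BANK1-only members. With members holding JCHAIN or MZB1 left out and the denominator unchanged, they were 0.718 for NASH-T against Con and 1.20 against NASH in all members. In PAX5/MS4A1 members they were then 1.00 and 1.39. NASH-T against Con was 0.981 in all members with at least 5 marker UMIs. In BANK1-only members it was 0.842 thinned to 1000 UMIs, where members were chosen at 2 or more marker UMIs. With no excluding genes BANK1-only ratios were 0.695 for NASH and 0.843 for NASH-T against Con. The other 68 share ratios stayed within the interval of the value reported, though some of their own intervals then held 1.

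Gene counts past the fold for NASH against Con, NASH-T against Con and NASH-T against NASH were 725, 827 and 823 in all members, 335, 458 and 464 in PAX5/MS4A1 members and 784, 762 and 727 in BANK1-only members. With no excluding genes they were 1494 (NASH against Con) and 1931 (NASH-T against NASH), then 699, 1522 and 1188, then 1734 (NASH against Con) and 1830 (NASH-T against NASH). Members thinned to 1000 UMIs gave 420, 512 and 542, then 133, 197 and 239, then 381, 360 and 387, with fewer UMIs by construction. A fold of 2 gave 369, 404 and 401 in all members, 270 for NASH-T against Con in PAX5/MS4A1 members, and 412, 410 and 381 in BANK1-only members. A minimum of 50 UMIs gave 150, 280 and 262 in PAX5/MS4A1 members and 471 for NASH-T against NASH in BANK1-only members, and no minimum gave 567 for NASH against Con in PAX5/MS4A1 members. The other 89 counts stayed within 1.5 times.

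Of the ratios of named genes 1855 stayed within their counting interval, 213 moved and 8 reversed, and 6 ratios to 0 UMIs gave no value. With no excluding genes the reversed ratios were TPX2 at 0.980 in all members and 0.952 in BANK1-only members for NASH against Con, TEAD1 at 0.771 and IDO1 at 1.02 for NASH-T against NASH in all members, and ZNF710 at 0.922 for NASH against Con in PAX5/MS4A1 members. In the latter, TEAD1 for NASH against Con was 1.13 without JCHAIN and MZB1 and 1.04 thinned, and TRAM2 for NASH-T against Con was 0.877 without JCHAIN and MZB1. The mean of per-cell CPM gave values for named genes and no counts. Depth limits the rare genes: below 20 UMIs over both libraries no ratio was read.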

Other observations

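GH1, the growth hormone gene, was chosen here after its values were seen. It had 34, 22 and 59 UMIs in PAX5/MS4A1 members of Con, NASH and NASH-T, or 164, 172 and 191 CPM. It was at 2.49, 7.77 and 5.87 CPM in BANK1-only members, at 1.27, 1.38 and 0.866 CPM in T cells and at 0 in macrophages. The protein-coding gene next to GH1 in RefSeq's goat assembly ARS1.2 is CD79B, which had 2, 0 and 1 UMIs in the same members. The build of the deposited counts is not given in the sources used here.

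Barcodes that met the plasma cell rule, with at least 5 UMIs of JCHAIN, MZB1, TNFRSF17 and DERL3 and none of the marker genes, numbered 6 in Con, 8 in NASH and 14 in NASH-T. They were 0.0802% (0.0294 to 0.174), 0.0916% (0.0396 to 0.180) and 0.149% (0.0817 to 0.250) of barcodes. Their median depths were 1499.5, 1703 and 2269.5 UMIs.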
